A study of Mus musculus with 2 samples.

Results

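Neighbouring CTCF binding sites whose motifs point toward each other were collected from the CTCF ChIP-seq summits of mouse embryonic stem cells (ESCs). A pair was formed by 2 consecutive summits on chromosomes 1 to 19 that lie 20 to 500 kb apart, each with exactly 1 match to the CTCF motif within 150 bp, the left motif on the plus strand and the right motif on the minus strand. Of 33226 summits on these chromosomes, 22822 had exactly 1 motif, 9116 had none and 1288 had 2 or more. Of 33207 pairs of consecutive summits, 15692 had 1 motif at each site, and 8714 of these were 20 to 500 kb apart. Among them 2450 pairs were convergent, 4309 were tandem, with both motifs on the same strand, and 1955 were divergent, with the motifs pointing away from each other. The 2450 convergent pairs hold 4900 different sites, since a motif points to only 1 side and a site can therefore belong to only 1 convergent pair.

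The study used an R1/E ESC line that carries, beside its own CTCF, a stably integrated BAC expressing CTCF fused to a LAP tag with GFP; resistant clones had been sorted for GFP-positive cells. Chromatin was crosslinked with 1% formaldehyde, sonicated to about 500 bp, and immunoprecipitated with a goat antibody against eGFP in 1 library and with goat IgG in the other. The IgG library is also called input DNA in its labels. Tags of 35 bp on the mm9 build numbered 8391191 for CTCF and 7988889 for IgG, and neither library has a replicate. Intervals given here are 95% intervals over pairs, sites or tags of these libraries, and do not cover the variation between cultures.

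CTCF is a zinc finger protein that binds a long, asymmetric DNA motif, so that every bound site has a direction. It holds cohesin, the ring-shaped complex that extrudes chromatin loops, and loop ends mapped in mammalian cells are known to carry mostly motifs that face each other. No contact map was analysed here, so a convergent pair is a pair of neighbouring sites and not a measured loop.

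The direction of a site is read from the motif, and the sequences are shown to make it visible. The consensus of the 192 CTCF sequences used for the matrix is given on the motif strand and on the opposite strand, with motif positions 4 to 15, called the core here, in capitals.
Motif strand: tggCCACCAGGGGGCacta
Opposite strand: tagtGCCCCCTGGTGGcca
A convergent pair reads as the first form at its left site and as the second form at its right site when both are read along the plus strand. At the 4900 sites, position 5 of the motif was C at 99.8%, position 10 was G at 99.8% and position 13 was G at 99.8%. Other core positions varied, with the consensus base at 44.5% at position 7, 30.4% at position 8 and 45.0% at position 11. The matrix itself has 97%, 98.0% and 99.6% at positions 5, 10 and 13, and 47.3%, 32.2% and 49.8% at positions 7, 8 and 11. Sites were chosen by their match to it, so these shares restate the choice. The 5 convergent pairs whose lower summit was highest are shown next, each site on its own motif strand, because they are the members with the most stacked tags at both ends.
Pair 1 left, chr8:19984941-19984959, plus strand: tggCCGCTAGATGGCgacg
Pair 1 right, chr8:20020444-20020462, minus strand: gggCCACCAGAGGGCgcga
Pair 2 left, chr19:4813209-4813227, plus strand: aagCCAGAAGAGGGCgtca
Pair 2 right, chr19:4908300-4908318, minus strand: aagCCACAAGAGGGCattg
Pair 3 left, chr6:142937407-142937425, plus strand: cggCCACAAGAGGGCgatg
Pair 3 right, chr6:142969352-142969370, minus strand: ctaCCACTAGAGGGAgttg
Pair 4 left, chr19:25448269-25448287, plus strand: aggCCAGAAGAGGGCgttg
Pair 4 right, chr19:25519716-25519734, minus strand: tggCCACTAGGGGGAgcca
Pair 5 left, chr11:8324400-8324418, plus strand: tagCCACTAGGGGGCagga
Pair 5 right, chr11:8424015-8424033, minus strand: tgaCCAGCAGGTGGCgctg
Their match to the matrix ranged from 16.2 bits at the right site of pair 3 to 24.2 bits at the right site of pair 5, above the threshold of 13.05 bits that a match at p 1e-05 requires.

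Summed over 20 to 500 kb, convergent pairs were more frequent than divergent pairs, but divergent pairs were the more frequent ones at 20 to 50 kb and convergent pairs in each longer bin. Motifs lay on the plus strand at 49.9% of the sites with 1 motif (49.2 to 50.5), so strands without any relation between neighbours would give 25% convergent, 50.0% tandem and 25% divergent pairs. Observed were 28.1% convergent (27.2 to 29.1), 49.4% tandem (48.4 to 50.5) and 22.4% divergent pairs (21.6 to 23.3). The ratio of convergent to divergent pairs was 1.25 (exact interval 1.18 to 1.33), and convergent pairs outnumbered divergent pairs on 19 of 19 chromosomes. Tandem pairs with both motifs on the plus strand (2130) and on the minus strand (2179) were about equally frequent.

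With distance the convergent share rose from 23.4% (22.1 to 24.8) of the pairs 20 to 50 kb apart to 28.7% (26.9 to 30.5) at 50 to 100 kb and 35.3% (33.0 to 37.7) at 100 to 200 kb. At 200 to 500 kb it was 34.1% (31.0 to 37.3), within the interval of the bin before. The divergent share went the other way, from 25.7% to 21.8%, 17.8% and 18.2% in the same bins. As a ratio, there were 0.911 convergent pairs for each divergent pair at 20 to 50 kb (exact interval 0.831 to 0.998) and 1.99 at 100 to 200 kb (1.72 to 2.31). The convergent share at 100 kb or more was above that under 50 kb on 19 of 19 chromosomes. Pairs shorter than those described here also had more divergent than convergent members. Under 5 kb, 18.8% of 2354 neighbouring pairs were convergent and 26.3% divergent, a ratio of 0.714 (0.631 to 0.808), and at 10 to 20 kb the ratio was 0.705 (0.629 to 0.791). Above 500 kb, 119 pairs were convergent and 44 divergent, a ratio of 2.70 (1.90 to 3.91).

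**Figure D1:**
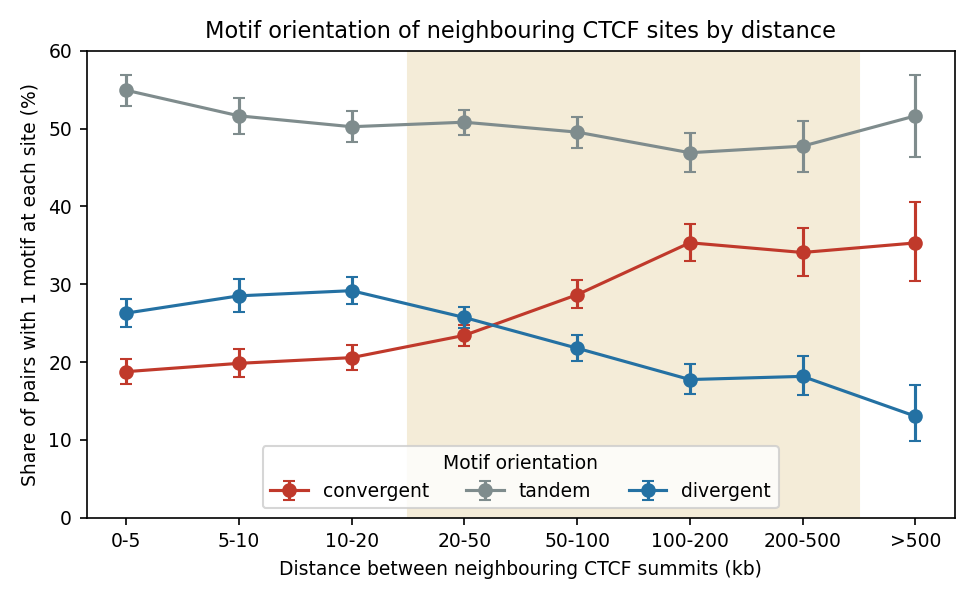
Share of convergent, tandem and divergent pairs (y axis, percent, with 95% Wilson intervals) among neighbouring CTCF summits with 1 motif each, by the distance between the summits (x axis, kb). The shaded bins hold the 8714 pairs 20 to 500 kb apart, and the convergent line rises from 23.4% to 35.3% between the first and the third shaded bin while the divergent line falls from 25.7% to 17.8%.

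The same is seen in the spans. Convergent pairs spanned a median of 68.8 kb (order-statistic interval 65.8 to 72.1, quartiles 37.3 and 131), tandem pairs 55.2 kb (53.2 to 57.6) and divergent pairs 49.6 kb (46.9 to 52.0). Convergent pairs were longer than tandem pairs by 13.6 kb (Price-Bonett interval of the difference of medians 9.82 to 17.4) and longer than divergent pairs by 19.2 kb (15.2 to 23.2). Both differences had the same sign on 18 of 19 chromosomes. Among chromosomes, the median convergent span ran from 44.3 kb on chromosome 11, which has 184 such pairs, to 107 kb on chromosome 18, which has 80. The limits of 20 and 500 kb cut through a continuous range. The convergent pairs just inside them spanned 20.009 and 496.144 kb, with summit heights of 23 and 14 tags and of 14 and 11 tags. Those just outside spanned 19.988 and 504.126 kb, with heights of 12 and 8 tags and of 16 and 8 tags.

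**Figure D2:**
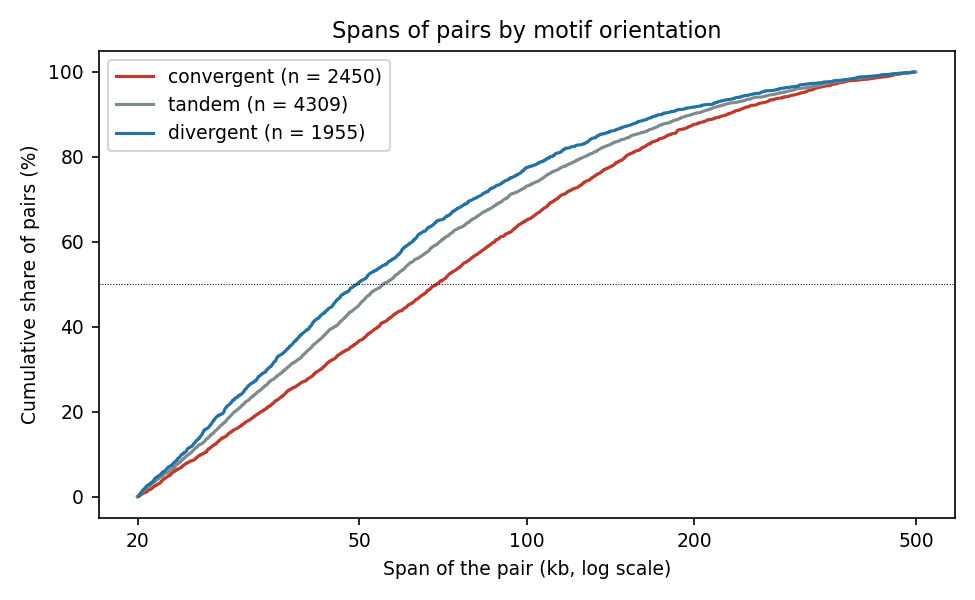
Cumulative share of pairs (y axis, percent) against the span of the pair (x axis, kb, log scale) for the 3 motif orientations. The convergent curve lies to the right of the others and crosses the dotted line at 50% at 68.8 kb, against 55.2 kb for tandem and 49.6 kb for divergent pairs.

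The next question is what lies between the sites. A protein-coding gene start (GENCODE M1, the outer end of the gene by strand) was found inside 1472 convergent pairs, 60.1% (Wilson interval 58.1 to 62.0), against 49.0% of tandem pairs (47.5 to 50.5) and 52.8% of divergent pairs (50.6 to 55.0). The difference was 11.1 percentage points from tandem pairs (Newcombe interval 8.66 to 13.5) and 7.24 points from divergent pairs (4.30 to 10.2). The convergent share was the higher one on 19 of 19 chromosomes against tandem and on 16 of 19 against divergent pairs. Because longer pairs have more room for genes, the shares were also compared within bins of span. Against tandem pairs the difference was 7.26 points at 20 to 50 kb (3.32 to 11.2), 13.5 points at 50 to 100 kb (8.88 to 17.9), 10.2 points at 100 to 200 kb (4.87 to 15.5) and 8.02 points at 200 to 500 kb (0.934 to 14.9). Against divergent pairs it was 5.00 points (0.492 to 9.49) and 5.94 points (0.465 to 11.4) in the first bins, and the intervals reached across 0 at 100 to 200 kb (-4.21 to 9.44) and at 200 to 500 kb (-5.48 to 12.4).

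**Figure D3:**
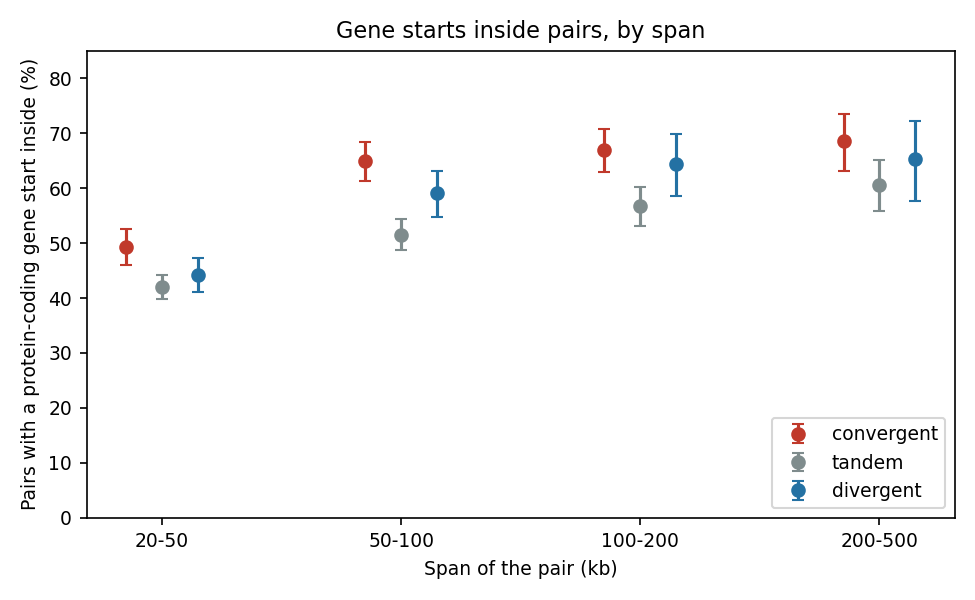
Share of pairs with at least 1 protein-coding gene start inside (y axis, percent, with 95% Wilson intervals) by span of the pair (x axis, kb) and motif orientation. Convergent pairs lie above tandem pairs in each bin, from 49.2% against 42.0% at 20 to 50 kb to 68.5% against 60.5% at 200 to 500 kb.

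Among pairs with at least 1 gene start inside, the difference was widest for those with a single start. Exactly 1 gene start lay inside 939 convergent pairs, 38.3% (36.4 to 40.3), against 30.4% of tandem (29.0 to 31.8) and 30.3% of divergent pairs (28.3 to 32.4). In 466 of these 939 pairs, 49.6% (46.4 to 52.8), the gene lay wholly between the summits. In tandem pairs with 1 gene start it was 44.7% (42.0 to 47.4) and in divergent ones 45.9% (42.0 to 50.0), intervals that overlap the convergent one. With 2 starts there were 333 convergent pairs (13.6%), with 3 to 5 there were 176 (7.18%), and with 6 or more only 24 (0.98%, 0.659 to 1.45, against 1.64% of divergent pairs, 1.16 to 2.30). Over all spans, at least 1 whole protein-coding gene lay inside 39.1% of convergent pairs, 8.63 points above tandem (6.26 to 11) and 4.22 points above divergent pairs (1.35 to 7.07). Both sites lay within the body of 1 gene in 413 convergent pairs, 16.9% (15.4 to 18.4), against 18.0% and 15.0% in tandem and divergent pairs, with intervals of the differences that include 0.

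Gene density gave another order than the share of pairs with a gene. Convergent pairs held 2396 gene starts in 248 Mb, 0.964 per 100 kb (exact Poisson interval 0.926 to 1.00), tandem pairs 0.957 (0.926 to 0.989) and divergent pairs 1.23 (1.17 to 1.28). The ratio of convergent to divergent density was 0.787 (exact interval 0.741 to 0.836), and that of convergent to tandem density was 1.01 (0.956 to 1.06). Intervals of densities and of their ratios treat each gene start as independent. Starts cluster in some pairs, so these intervals do not cover the spread over pairs. Both pooled ratios combine bins that differ. Against divergent pairs the ratio was 0.992 (0.888 to 1.11) at 20 to 50 kb, 1.04 (0.931 to 1.17) at 50 to 100 kb and 0.887 (0.778 to 1.01) at 100 to 200 kb, all intervals that include 1. Against tandem pairs it was 1.15 (1.04 to 1.26), 1.20 (1.09 to 1.32) and 1.09 (0.979 to 1.21) in these bins. At 200 to 500 kb it was 0.864 (0.761 to 0.982), so that its direction turned in the longest pairs when all pairs were counted. In the pairs of 200 to 500 kb the convergent density was 0.432 per 100 kb and the divergent density 0.734, a ratio of 0.588 (0.509 to 0.681). In that bin, 16 divergent pairs with 6 or more gene starts held 167 of 358 starts, and with these gene-rich pairs left out of both groups the densities were 0.370 (0.331 to 0.413) and 0.441 (0.381 to 0.508). Among tandem pairs of that bin, 24 such pairs held 269 of 638 starts. Without them the tandem density was 0.308 (0.277 to 0.341), below the convergent 0.370. The richest of all pairs was a tandem pair of 390 kb on chromosome 11 with 49 gene starts, among them genes of the Krtap family, which encode keratin-associated proteins of hair. It was followed by a divergent pair of 496 kb on chromosome 9 with 25 starts, among them olfactory receptor genes of the Olfr family. The sequence inside convergent pairs had a median of 44.4% GC, 0.378 points above tandem (0.143 to 0.613) and 0.548 points above divergent pairs (0.275 to 0.821). The part of GC content in the differences in genes was not tested.

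The convergent pairs with the most gene starts hold clusters of related genes. The first, on chromosome 4 with summits at 88384587 and 88469189, spans 84.6 kb and holds 17 starts, among them Ifnz, Ifna7 and Ifna11, genes of type I interferons, the secreted antiviral signals. Its summits were 11 and 9 tags high. The pair on chromosome 10 with summits at 78218907 and 78579558 holds 10 starts, among them Olfr8, Olfr57 and 6 other Olfr genes, between summits of 25 and 15 tags. A pair on chromosome 11 with summits at 58215805 and 58401810 also holds 10 starts, among them Olfr30 and Olfr224, between summits of 16 and 17 tags. Members of such gene families share sequence, so tag counts near them are uncertain.

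The position of single sites relative to genes differed little between orientations, whose groups of sites overlap. Of the 4900 sites, 47.8% lay inside a protein-coding gene (46.4 to 49.2) and 3.41% within 1 kb of a gene start (2.94 to 3.95), against 47.4% and 3.96% of divergent sites, with intervals of the differences that include 0 (-1.72 to 2.48 and -1.37 to 0.231 points). Over 25 kb from any gene start lay 52.0% of convergent and 55.6% of tandem sites, a difference of -3.56 points (-5.31 to -1.81). Among divergent sites it was 52.6%, a difference of -0.583 points (-2.68 to 1.52). The tandem share counts 8618 ends of pairs at 7757 different sites, so its interval treats repeated sites as independent. At the 322 convergent sites within 2 kb of a gene start, the nearest gene was transcribed into the pair in 181 cases, 56.2% (50.8 to 61.5). In divergent pairs this was 41.7% (36.0 to 47.6), a difference of 14.5 points (6.44 to 22.3). Both numbers follow from the strand of the motif, since the gene had the strand of the motif at 56.2% of convergent, 56.6% of tandem and 58.3% of divergent sites.

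Summit heights, the number of stacked tags at the summit, differed by at most 1 tag between the median pairs of the orientations. Pairs of different orientation can share a site, so their heights are not independent. The lower summit of a convergent pair had a median of 11 tags (quartiles 9 and 13, range 6 to 39), as in tandem and divergent pairs, and the higher summit a median of 16 tags in each orientation. Heights are whole tags, so the medians tie and the difference of medians has no width. Means were therefore compared as well. The mean lower height was 11.6 ± 3.36 tags (SD, n = 2450 pairs) in convergent, 11.4 ± 3.28 (n = 4309) in tandem and 11.6 ± 3.37 (n = 1955) in divergent pairs. The mean of the 2 heights of a pair had a median of 14 tags in convergent and 13.5 in tandem pairs, a difference of 0.5 tags (0.154 to 0.846), and of 14 tags in divergent pairs (difference 0, -0.347 to 0.347). This measure moves in steps of 0.5 tags. Its median had the same interval, 13.5 to 14 tags, in convergent and tandem pairs, and its quartiles were 11.5 and 16.5 in both. For the lower height, the difference of means was 0.141 tags from tandem (-0.0246 to 0.306) and -0.0464 tags from divergent pairs (-0.246 to 0.154). At 200 to 500 kb alone, the median lower height was 11 tags in convergent and 10 tags in tandem and divergent pairs, a difference of 1 tag (0.520 to 1.48 and 0.523 to 1.48). This is a single step of the scale. The order-statistic intervals of the tandem and divergent medians, 10 to 11 tags, include the convergent median. The convergent share did not follow height, with 27.0% (24.8 to 29.3) of the pairs whose lower summit had 6 to 8 tags and 27.9% (25.3 to 30.7) of those with 16 tags or more.

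High summits were not paired with high summits. Over the 2450 convergent pairs, Spearman's rho between left and right height was -0.00901, and it was 0.0255 in tandem and 0.0140 in divergent pairs. These are correlations over pairs of 1 library. The median absolute log2 ratio of the 2 heights was 0.49 in convergent pairs, and 368 pairs, 15.0%, differed by more than 2 times. Both summits had 20 tags or more in 60 convergent pairs. No difference in motif score was detected, with a median of 17.2 bits at the weaker site of convergent pairs and an interval of the difference that includes 0 against tandem (-0.111 to 0.255) and divergent pairs (-0.144 to 0.264).

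**Figure D4:**
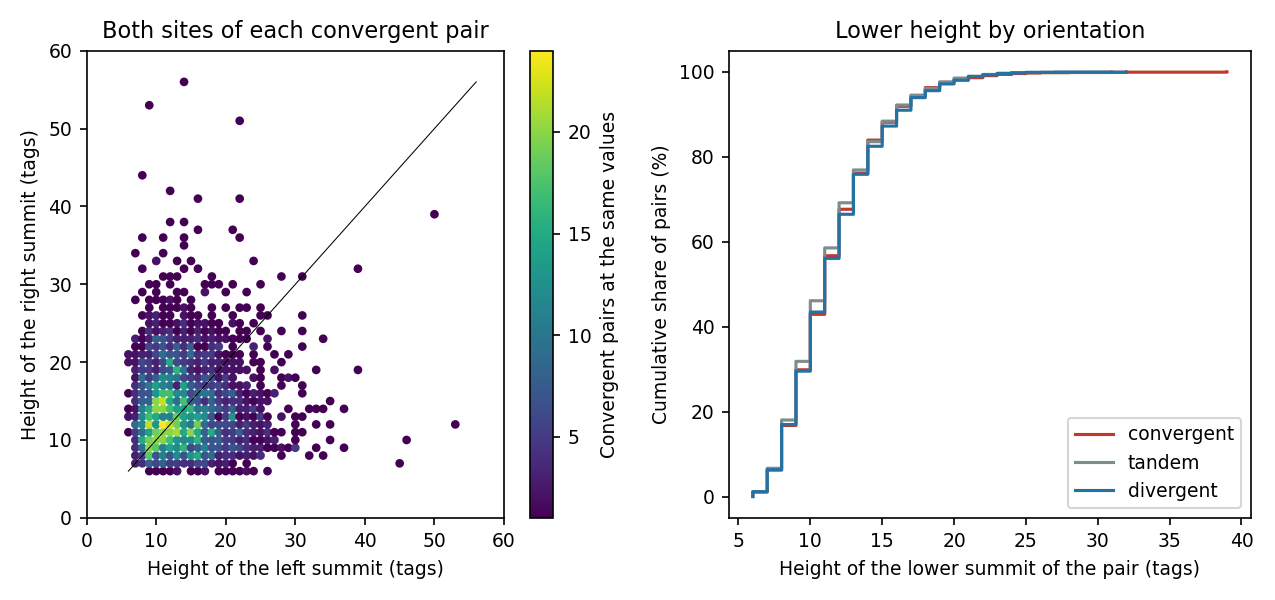
Left: height of the left summit (x axis, tags) against that of the right summit (y axis, tags) of the 2450 convergent pairs, coloured by the number of pairs at the same values, with the line of equal heights. Right: cumulative share of pairs (y axis, percent) by the height of the lower summit (x axis, tags). The 3 curves nearly coincide, with medians of 11 tags.

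Against the control, the 4900 convergent sites held 81879 CTCF and 5258 IgG tags within 150 bp of the summit, a ratio of 14.8 after scaling to library size (exact interval 14.4 to 15.2). Tandem sites had a ratio of 14.8 (14.4 to 15.1) and divergent sites 14.9 (14.5 to 15.4), so the orientations were not told apart. The median site had 15 CTCF tags and 1 IgG tag in each orientation. Since the peaks were called for CTCF over IgG in these libraries, the size of the ratio restates the calls. Only its comparison between orientations is of use, within the limit of the shared sites.

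The named pairs put these values at single loci. Pair 1 of the sequences above, on chromosome 8 with summits at 19984848 and 20020500, had heights of 50 and 39 tags, the highest lower summit of all convergent pairs. It spans 35.7 kb, holds no protein-coding gene start, and lies upstream of Gm15319. Its left site held 59 CTCF and 12 IgG tags and its right site 44 CTCF and 3 IgG tags, so that the left site had more control tags than the median of 1. Pair 2, on chromosome 19 with summits at 4813116 and 4908384, had heights of 39 and 32 tags. It encloses 6 gene starts in 95.3 kb, those of Ccs, the copper chaperone of superoxide dismutase, Ccdc87, Ctsf, a lysosomal cathepsin, Actn3, an actinin of fast muscle fibres, Zdhhc24 and Bbs1, a subunit of the ciliary BBSome. Its left site lies 1482 bp upstream of the start of Rbm14 and its right site within Dpp3, which encodes a dipeptidyl peptidase. The control was low there, with 2 IgG tags against 39 CTCF tags on the left and 1 against 34 on the right.

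The other 3 of these pairs hold no protein-coding gene start. Pair 3 on chromosome 6 has 31 tags at both summits over 32.1 kb, with its right site inside 5730419I09Rik and both sites upstream of St8sia1, the synthase of the ganglioside GD3. Pair 4 on chromosome 19 has 28 and 31 tags over 71.4 kb, with its left site inside Kank1 and Dmrt1, a transcription factor of testis development, as the nearest gene start. Pair 5 on chromosome 11 has 31 and 26 tags over 99.6 kb, with its right site inside Tns3, which encodes tensin 3 of focal adhesions. For comparison, the highest tandem pair, on chromosome 16 with summits at 14160052 and 14195699, had heights of 31 and 33 tags around the start of Nde1, and the highest divergent pair, on chromosome 11 with summits at 78213375 and 78242009, had 32 and 34 tags around the start of Slc13a2. In the latter the 2 motifs open outward.
Divergent left, chr11:78213368-78213386, minus strand: aagCCTCCAGAGGACgcca
Divergent right, chr11:78241991-78242009, plus strand: cttCCTGCTGGTGGCgctg

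At the ends of the range, the shortest convergent pairs lie at 20.009 kb inside Ccdc60, at 20.041 kb inside 4930485B16Rik and at 20.055 kb around the start of Scd3, a stearoyl-CoA desaturase. The heights of these pairs were 23 and 14 tags, 9 and 24 tags, and 10 and 9 tags. The longest spanned 496 kb on chromosome 3 and held the starts of Foxo1, a forkhead transcription factor of insulin signalling, and of Gm10293, between summits of 14 and 11 tags. A pair of 493 kb on chromosome 4 held the starts of Nfia, a nuclear factor I gene, and E130114P18Rik between summits of 11 and 12 tags. A pair of 492 kb on chromosome 14 held 5 starts, those of Cpb2, Zc3h13, Siah3, Spert and 4930564B18Rik, between summits of 12 and 19 tags.

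Genes of known function in ESCs were looked up in lists. Of 29 pluripotency genes, 27 were found on chromosomes 1 to 19, and the starts of 3 lay inside a convergent pair, 11.1%, against 11.19% of all 21418 protein-coding genes. Of the others, 6 lay in a tandem pair, 1 in a divergent pair and 17 in no pair of these kinds, where all genes had 16.96%, 8.97% and 62.9%. The 3 are Dppa5a, Dppa4 and Fgf4, and their motifs are printed because each pair encloses a gene of the pluripotent state.
Dppa5a left, chr9:78206045-78206063, plus strand: tctCCGGTAGGTGGCgctc
Dppa5a right, chr9:78233922-78233940, minus strand: ctgCCAGCAGAGGGCatca
Dppa4 left, chr16:48235291-48235309, plus strand: atgCCAGAAGAGGGCacca
Dppa4 right, chr16:48321098-48321116, minus strand: aggCCAGAAGAGGGCacta
Fgf4 left, chr7:152032260-152032278, plus strand: cttCCAGCAGGTGGCagtg
Fgf4 right, chr7:152073772-152073790, minus strand: aggCCAGTAGAGGGTgtca
The Dppa5a pair spans 27.9 kb and also holds the start of Ooep, an oocyte-expressed gene, between summits of 20 and 24 tags with 23 and 35 CTCF tags and no IgG tag within 150 bp of either. The Dppa4 pair spans 86.0 kb and also holds Dppa2, its partner gene, between summits of 11 and 10 tags. The Fgf4 pair spans 41.4 kb with Fgf4, a growth factor of the early embryo, as its only gene start, between summits of 17 and 9 tags. Its left site lies downstream of the start of Fgf3 and its right site upstream of Fgf15, so that the pair parts Fgf4 from the starts of both related genes.

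Among 30 lineage transcription factor genes found, 5 lay in a convergent pair, 16.7%, with 2 (6.67%) in tandem pairs, 3 (10%) in divergent pairs and 20 (66.7%) in none. Over all protein-coding genes these shares were 11.19%, 16.96%, 8.97% and 62.9%. The 5 in a convergent pair are Tal1 and Runx1, factors of blood development, Gata2, of the same lineage, Pax7, of muscle precursors, and Olig2, of oligodendrocytes and motor neurons. Tal1 lay in a pair of 24.0 kb with heights of 16 and 9 tags as its only gene start, and Pax7 in a pair of 50.7 kb with 14 and 21 tags, also as the only start. The Runx1 pair spanned 439 kb between low summits of 8 and 9 tags. The pairs around Gata2 and Olig2 spanned 209 and 96.2 kb and had heights of 14 and 20 tags and of 17 and 13 tags. Of 23 housekeeping genes found, 3 lay in a convergent pair, 13.0%, namely Actb, cytoplasmic actin, in a pair of 53.0 kb, Canx, the chaperone calnexin, in 34.8 kb, and Rplp0, a ribosomal stalk protein, in 55.8 kb. Another 5 (21.7%) lay in tandem pairs, 2 (8.70%) in divergent pairs and 13 (56.5%) in none. Of 14 genes of cohesin, its regulators and CTCF, 1 lay in a convergent pair, 7.14%. It is Wapal, which releases cohesin from chromatin, and its pair spans 132 kb with summits of 11 and 12 tags. Another 4 (28.6%) lay in tandem pairs, 4 (28.6%) in divergent pairs and 5 (35.7%) in none. These counts are small and describe the lists only.

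Some motif sequences recurred among the sites. At 750 of the 4900 convergent sites, 15.3%, positions 4 to 15 of the motif had the same 12 bases.
Recurring core: CCAGAAGAGGGC
The next most frequent core, CCAGCAGAGGGC, occurred at 157 sites, 3.20%. The recurring core was searched on both strands of all 33226 summit windows of 301 bp and found in 12% (11.6 to 12.3), against 1.46% (1.34 to 1.60) of windows 2 kb to the right. It had been picked as the most frequent core at motif matches inside summit windows, while the shifted windows were not chosen for a motif. The choice itself favours the summit windows, so the 2 shares do not test an excess. Whole 19-base sequences recurred too, led by the following 2.
At 73 convergent sites: aggCCAGAAGAGGGCatca
At 29 convergent sites: aggCCAGAAGAGGGCgtca
In mouse, B2 SINE elements, a class of short retrotransposons, are known to carry CTCF motifs. No repeat annotation was used here, and whether these sites lie in such elements was not tested. The pair on chromosome 5 with summits at 118516976 and 118541011 and the pair on chromosome 2 with summits at 144293063 and 144414743, which have the highest summed motif scores of all convergent pairs, have the same right motif to the base.
Chromosome 5 left, chr5:118517014-118517032, plus strand: aggCCAGCAGGGGGCgcca
Chromosome 5 right, chr5:118541046-118541064, minus strand: aggCCAGAAGAGGGCactg
Chromosome 2 left, chr2:144293122-144293140, plus strand: aggCCACCAGAGGGCacca
Chromosome 2 right, chr2:144414651-144414669, minus strand: aggCCAGAAGAGGGCactg
These 2 pairs had heights of 10 and 13 tags inside Fbxw8 and of 13 and 11 tags around Polr3f, a subunit of RNA polymerase III, and 3 other gene starts.

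Sites with the recurring core were lower than the other sites of convergent pairs, with a median of 12 against 14 tags, a difference of -2 tags (-2.69 to -1.31), and the same sign was found in tandem and divergent pairs. No difference in the core between orientations was detected, though their groups of sites overlap. It was present at 15.4% of tandem and 15.7% of divergent sites, with differences from convergent sites of -0.0864 points (-1.37 to 1.21) and -0.372 points (-1.90 to 1.14). Of pairs with no, 1 and 2 core sites, 28.2%, 27.7% and 29.7% were convergent. The change with distance was also present in the 6305 pairs without the core, where the convergent share was 22.9% (21.4 to 24.6) at 20 to 50 kb and 36.4% (33.7 to 39.2) at 100 to 200 kb. The 596 convergent pairs with 1 core site had a median span of 62.2 kb (55.2 to 69.2) and the 1777 without it 72.4 kb (67.8 to 76.6).

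Around the motifs, the tags formed a regular series on both sides, and it was uneven between the inside and the outside of a convergent pair. Each tag was shifted 94 bp to its fragment centre and counted by distance from the motif centre, as tags per kb and site for a library of 10M tags. Beyond the central summit, the CTCF tags had maxima at 315, 495, 675 and 855 bp on each side, 180 bp apart. On the outside these maxima had 50.3, 22.6, 18.98 and 14.1 tags per kb and site, and on the inside 34.1, 16.1, 13.6 and 10.6. The outer maxima were thus the higher ones at each of these 4 distances. The IgG tags had a like series at lower levels, with maxima at 145, 325, 505, 685 and 875 bp on the inside and at 145, 325, 495, 685 and 865 bp on the outside, and 5.80 and 5.41 tags per kb and site at 325 bp. In divergent pairs the inside was higher, with 51.2 tags per kb and site at 315 bp inside against 34.0 outside. Without moving the tags, those reading into a convergent pair had inner maxima at 225, 405, 585 and 765 bp, again 180 bp apart. Nucleosomes next to bound CTCF are known to stand in regular arrays, but whether these maxima mark nucleosomes was not tested.

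**Figure D5:**
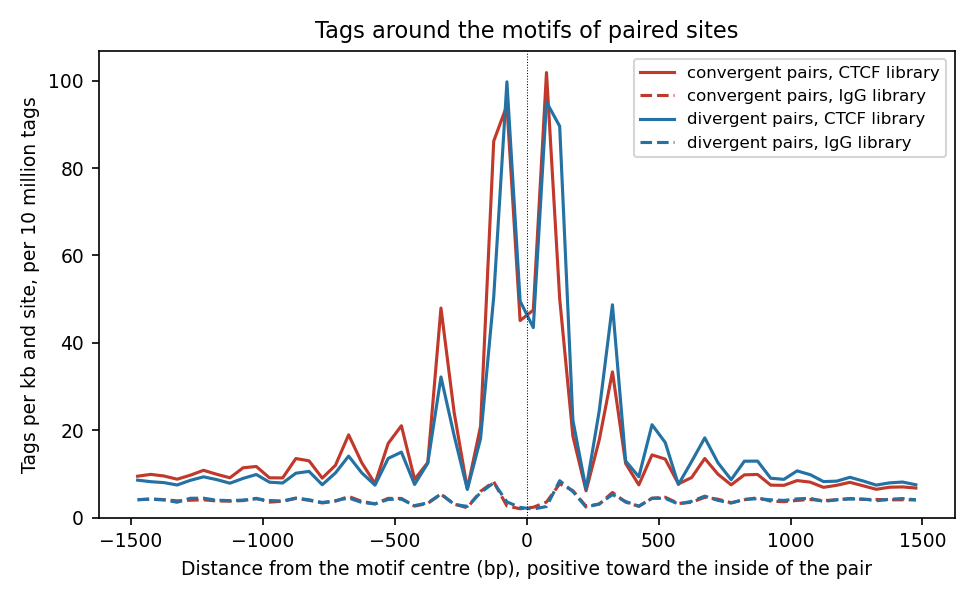
CTCF tags (solid) and IgG tags (dashed) per kb and site, scaled to a library of 10M tags (y axis), by distance from the motif centre in 50-bp bins (x axis, bp, positive toward the inside of the pair), for convergent and divergent pairs. Beside the central summit, side maxima recur on both sides, and they are higher on the outside of convergent pairs (50.3 against 34.1 at 315 bp in the finer bins) and on the inside of divergent pairs.

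The imbalance was counted at the 2860 convergent sites whose next summit on the outside is at least 20 kb away, so that no other summit lies within 20 kb on either side. Within 500 bp of the motif centre there were 36298 CTCF tags on the inside and 43360 on the outside, a ratio of 0.837 (exact interval 0.826 to 0.849). From 500 to 2000 bp the ratio was 0.838 (0.824 to 0.852), and from 2000 to 10000 bp it was 0.964 (0.955 to 0.973). The IgG ratios were 1.06 (1.01 to 1.10), slightly the other way 1.01 (0.983 to 1.03) and 0.991 (0.981 to 1.00) at the same distances. In divergent pairs the CTCF ratio of inside to outside was 1.21 within 500 bp (1.19 to 1.23), 1.18 from 500 to 2000 bp (1.16 to 1.20) and 1.03 from there to 10000 bp (1.02 to 1.04). Seen from the motif this is again a single relation. The side of the first motif base, the 5′ side of the motif strand as printed here, had 1.19 times the tags of the other side at 500 to 2000 bp in convergent and in tandem pairs (1.17 to 1.21 and 1.18 to 1.21), and 1.18 times in divergent pairs. The convergent arrangement therefore puts the side with more tags outside the pair at both ends. The summit itself lay on that side as well, at a median of 14 bp outside the motif centre in convergent pairs (12 to 17 bp) and 15 bp inside it in divergent pairs (12 to 18 bp).

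Between the sites, 2 kb and more from both summits, convergent pairs held 3.12 CTCF and 3.38 IgG tags per kb. The scaled ratio of CTCF to IgG was 0.878 (0.876 to 0.881) there, 0.881 (0.879 to 0.883) in tandem and 0.904 (0.900 to 0.907) in divergent pairs. The intervals treat each tag as independent, and the spread of the ratio over pairs was not measured. These stretches hold no called summit by the way the pairs were made, and of the library totals used for scaling, 950565 CTCF and 103855 IgG tags lay in peaks. The part of these tags in the ratio was not tested.

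Beyond the pair, the next site outward had no strong preference of direction. Of 3300 outer neighbours of convergent pairs with 1 motif and within 500 kb, 1718, 52.1% (50.4 to 53.8), pointed the same way as the nearer site of the pair. In tandem pairs it was 49.5% (48.2 to 50.8), a difference of 2.56 points (0.423 to 4.69), and in divergent pairs 51.0% (49.1 to 52.9), a difference of 1.04 points (-1.52 to 3.59). With outer neighbours within 100 kb only, the value was 50.6% (48.7 to 52.5) in convergent, 50.7% (49.3 to 52.1) in tandem and 53.0% (50.9 to 55.2) in divergent pairs, so that the excess over tandem pairs was not seen there. With peak scores of at least 100 the convergent value was 50.2% (48.3 to 52.0). Both outer neighbours could be read at 1110 convergent pairs. In 313 of these both pointed inward, which places the pair between 2 further motifs that face each other. In 264 both pointed outward, in 280 only the left one pointed inward, and in 253 only the right one did. A preference among these classes was not tested.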

How the data were processed

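Per the labels, the authors used MACS 1.4 on the mm9 build. The aligner is not given in the sources used here. The authors deposited each aligned tag as a line with a count of 1, without normalization, and for CTCF the peaks with a MACS score, which grows as the p-value against IgG falls (lowest value 50), and summits whose signal is the pileup height in tags. Genes came from GENCODE M1 and sequence from its genome, NCBI m37, the assembly of mm9.

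The matrix came from 192 CTCF sequences of the study's motif sheet, turned to the motif strand, with a pseudocount of 1 and base frequencies of 0.29 (A, T) and 0.21 (C, G). Matches at p 1e-05 had to lie wholly within 150 bp of the summit, on either strand. A shift of 94 bp was used for tags, since strand offsets at 1000 top peaks gave fragments of 188 bp. Shares carry Wilson, their differences Newcombe, medians order-statistic and their differences Price-Bonett intervals, all at 95%, with no adjustment for their number. They treat pairs and orientations as independent and cover counting error only. All pairs share 1 library, and tandem pairs can share sites with each other. Pairs of different orientation can share a site too. With pairs that share no site, 1757 of the 2450 convergent pairs remained. Densities carry exact Poisson and ratios exact binomial intervals. Where these count gene starts or tags, each is treated as independent, and the spread over pairs is not covered. With 1 library per antibody, no test between conditions was possible. The scripts were tested on simulated data. Intervals used scipy 1.17.1 and numpy 2.4.6, sequence access pysam 0.24.0, tables pandas 2.3.3 and plots matplotlib 3.10.9, under Python 3.11.15.

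The members, lists and tests were chosen with earlier results of these data known. Pairs named were the 5 with the highest lower summit, the 3 shortest and longest, the 3 with the most gene starts, the 2 with the highest summed motif score, those holding a pluripotency gene, and the highest tandem and divergent pair. The gene lists held 29 pluripotency, 32 lineage factor, 24 housekeeping and 17 cohesin and CTCF genes. The recurring core, the tag maxima and the sides of the motif were examined after the data were seen.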

Additional observations from a re-analysis of the deposited data

How the results depend on the processing

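Alternatives changed the motif threshold or window, the peak score, the distance, the rule for neighbours, the gene set, the tag window and the scaling, and the omission of pairs near Ctcf or with the recurring core, of pairs with 6 or more gene starts, and the use of means, was chosen after seeing the data. No paired analysis was possible because each antibody has a single library. Of 143 values, 115 kept their call, stayed within the interval or, for counts of pairs, stayed within a set multiple of the main count. Counts kept in this way went down to 1660 convergent pairs, with the motif within 100 bp, against 2450. The convergent share lay between 27.2% and 28.4% throughout, and the differences in span and in the share with a gene start kept their sign and left out 0. The cause of the other changes was not tested, other than where fewer or more summits set a count. The motif at p 1e-06 gave 1424 pairs, with a tag ratio of 15.4, and neighbours among single-motif summits only gave 3922, with a span of 80.1 kb, a gene start in 65.8% and 1.03 starts per 100 kb. A peak score of at least 100 gave a span of 85.1 kb, a gene start in 69.8%, 1.08 starts per 100 kb, a lower height of 14 tags, a tag ratio of 16.9 and 50.2% of outer neighbours in the same direction. Spans up to 200 kb gave 59.7 kb and 1.27 starts per 100 kb, pairs that share no site 62.6% and 1.02, any biotype 70.7% and 1.53, the motif at p 1e-04 0.892 starts, pairs with under 6 starts 0.907, and pairs without the core 72.4 kb and 63.0%. The tag ratio was 15.7 with the motif within 100 bp, 11.1 with 250 bp around the summit and 16.5 when scaled outside the peaks. With the mean of both heights, the median was 14 tags and the difference from tandem pairs 0.5 tags (0.154 to 0.846). This interval leaves out 0, but the difference is a single step of a measure with many ties. With means over pairs the lower height was 11.6 tags. Depth limits the heights, since a median summit of 13 tags moves in steps of 1 tag.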
